A study of Mus musculus with 16 samples.

Results

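The Schlafen family was followed through 7 mouse genes, Slfn1, Slfn2, Slfn3, Slfn4, Slfn5, Slfn8 and Slfn9, out of 18194 genes measured. A probe set was taken as a member where its annotated gene symbol was exactly one of these names, which gave 11 probe sets of the 34958 that carry a single symbol. Slfn5 had 3 probe sets, Slfn1 and Slfn9 had 2 each, and the others had 1. A further probe set annotated to both Slfn3 and Slfn4 was left out. The members were chosen by measured values in these arrays, above all the difference of Slfn4 between the CCR2+ and CCR2- sorts, so that difference is described here without a test.

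RNA came from cells of the peritoneal lavage of C57BL/6N female mice that carried ID8-luciferase ovarian cancer cells, a mouse line derived from ovarian surface epithelium. All mice, controls included, received 1 mg of tamoxifen in peanut oil by mouth at 8 to 12 weeks of age. The tumour cells were put into the peritoneum 3 weeks later and grew for 4 weeks. In RbpjiΔEC mice the gene for Rbpj, the DNA-binding factor through which Notch receptors act, was deleted in endothelial cells. The driver of the recombinase and the genotype of the control mice are not given in the sources used here. Cells were sorted as CD45+, CD11b+ and F4/80+ tumour-associated macrophages, with or without surface CCR2, the receptor that brings monocytes out of the bone marrow. The 4 groups were CCR2+ control, CCR2+ RbpjiΔEC, CCR2- control and CCR2- RbpjiΔEC, with 4 Affymetrix arrays each. Whether the arrays came from separate animals is not given, so the spread behind the p-values may be technical.

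Schlafen proteins are found in mammals and a few other vertebrates, and many of their genes are induced by type I interferon. The mouse genes differ by the length of their product. Slfn1 and Slfn2 encode short forms, Slfn3 and Slfn4 intermediate forms, and Slfn5, Slfn8 and Slfn9 long forms that add a helicase-like region. Slfn1 and Slfn2 are best known for restraining the growth of T cells, where Slfn2 keeps the cells quiescent and protects transfer RNA from cleavage. Slfn4 is known as an interferon- and Toll-like receptor-induced gene of macrophages and other myeloid cells.

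The genes lie side by side on chromosome 11, in the order Slfn5, Slfn9, Slfn8, the pseudogene Slfn10-ps, Slfn2, Slfn1, Slfn4, Slfn3 and Slfn14 in the GRCm38.p6 RefSeq annotation. Promoter windows from 250 bases before to 50 bases after each annotated start were read from RefSeq for GRCm38.p6, and all 7 members matched. The short and intermediate members are shown first, because their windows share the 9 bases given in capitals upstream of the start.

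Slfn1 promoter, chr11:83116726-83116775, plus strand: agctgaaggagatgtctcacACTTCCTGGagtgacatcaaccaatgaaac
Slfn2 promoter, chr11:83065037-83065086, plus strand: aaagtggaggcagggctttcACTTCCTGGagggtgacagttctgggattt
Slfn3 promoter, chr11:83191268-83191317, plus strand: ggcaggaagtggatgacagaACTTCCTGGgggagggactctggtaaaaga
Slfn4 promoter, chr11:83175093-83175142, plus strand: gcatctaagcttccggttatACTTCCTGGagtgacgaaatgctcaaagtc

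The run ACTTCCTGG, searched on both strands, was found in 277 of 32851 promoter windows of the genome (0.843%), and it began 74, 55, 42 and 73 bases before the start of Slfn1, Slfn2, Slfn3 and Slfn4. The longer run ACTTCCTGGAG, which contains it, was found in Slfn1, Slfn2 and Slfn4 and in 0.0731% of all windows. These are the longest runs that the windows share, and they were looked for after the sequences had been read. Their other strand holds GGAA, the core letters bound by ETS factors such as PU.1, a factor of myeloid and B cells. The long members carry instead the core of the interferon-stimulated response element, which is GAAA repeated after a gap of 2 free bases. It is given in capitals below in the direction in which each gene is read, so that in Slfn8 and Slfn9 it appears as the other strand.

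Slfn5 promoter, chr11:82951927-82951976, plus strand: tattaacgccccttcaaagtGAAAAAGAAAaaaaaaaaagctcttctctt
Slfn8 promoter, chr11:83020829-83020878, minus strand: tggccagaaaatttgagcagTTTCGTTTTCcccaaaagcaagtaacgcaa
Slfn9 promoter, chr11:82991846-82991895, minus strand: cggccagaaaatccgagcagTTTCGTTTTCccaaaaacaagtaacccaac

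This core, on either strand, was found in 3 of the 7 members and in 3.44% of all windows. It began 155 bases before the start of Slfn5, 48 before Slfn8 and 45 before Slfn9. The Slfn8 and Slfn9 windows were 80.7% identical (246 of 305 aligned positions), against 42% to 48.6% for the other 20 pairs of members. AANNGAAA, a single site for an interferon regulatory factor that every such core also contains, was found in all 7 members and in 23.9% of windows. The letters TTCNNNGAA, the site for STAT factors, were in none of the 7 windows and in 8.3% of all windows. Because Slfn4 is the member with the widest range below, its whole window is also given, with the shared 9 bases in capitals.

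Slfn4 promoter window, chr11:83174936-83175235, plus strand: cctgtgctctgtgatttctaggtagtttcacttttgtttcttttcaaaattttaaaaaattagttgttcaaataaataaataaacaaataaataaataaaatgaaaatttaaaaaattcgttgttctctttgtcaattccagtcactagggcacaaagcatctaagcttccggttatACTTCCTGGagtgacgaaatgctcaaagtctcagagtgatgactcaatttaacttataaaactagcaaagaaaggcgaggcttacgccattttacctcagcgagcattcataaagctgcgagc

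The sort labels and the marker genes of the arrays differed. Adgre1, which encodes F4/80, had log2 levels of 13.25 ± 0.14 and 13.24 ± 0.16 in CCR2+ control and RbpjiΔEC arrays, and 9.21 ± 0.24 and 9.08 ± 0.19 in CCR2- arrays (SD, n = 4). The B cell gene Cd79a averaged 7.65 and 7.73 in CCR2+ arrays and 12.78 and 12.83 in CCR2- arrays. The 12 B cell markers measured all had lower levels under the CCR2+ label, with a summed level of 11.83 to 11.98 against 16.29 to 16.34. All 14 markers of large peritoneal macrophages were higher in CCR2+ arrays, with a summed level of 16.76 to 16.89 against 12.2 to 13.01. Ccr2 itself averaged 7.99 and 7.69 in CCR2+ arrays and 9.99 and 8.94 in CCR2- arrays. The deposited columns also differed in kind by label, with array means of 821.5 to 827.3 in CCR2+ arrays and 481 to 762 in CCR2- arrays, so label, cell makeup and processing cannot be told apart. "CCR2+" and "CCR2-" below name the label only. In such bulk samples fewer cells of a type and less RNA per cell cannot be told apart.

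Slfn4 had the widest range of the family. Its log2 levels in CCR2+ control arrays were 13, 13.24, 13.41 and 12.97, and in CCR2+ RbpjiΔEC arrays 13.15, 12.98, 13.25 and 13.41. In CCR2- control arrays they were 6.92, 8.70, 7.95 and 7.25, and in CCR2- RbpjiΔEC arrays 6.64, 6.13, 6.84 and 6.79. All 8 CCR2+ arrays lay above all 8 CCR2- arrays, and the CCR2- RbpjiΔEC values were at or just above the 6.12 to 6.72 read there by the trp probe sets, which target a bacterial transcript and stand for the background. The CCR2+ minus CCR2- difference was 5.45 ± 0.28 (SE) in control mice and 6.60 ± 0.28 in RbpjiΔEC mice, or 43.6-fold and 96.8-fold on the measured levels. With the CCR2- RbpjiΔEC arrays at or just above background, the second fold may understate the difference. Counted from the highest CCR2+ minus CCR2- difference, Slfn4 stood at rank 12 and rank 1 of the 18194 genes. On the deposited scale, the Slfn4 intensity ran from 9736.1 to 12975.8 in CCR2+ arrays and from 68.2 to 496.8 in CCR2- arrays.

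Slfn3, which lies next to Slfn4 and shares a probe set with it, followed the label at much smaller size. Its levels in CCR2+ control arrays were 7.73, 8.06, 7.87 and 7.67, and in CCR2+ RbpjiΔEC arrays 7.59, 7.84, 7.87 and 7.78. In CCR2- control arrays they were 6.54, 6.71, 6.48 and 6.66, and in CCR2- RbpjiΔEC arrays 6.31, 6.58, 6.74 and 6.68. The 2 labels did not overlap, and the CCR2- values lay at or near the trp background of 6.03 to 6.72. The difference was 1.23 ± 0.11 in control mice and 1.19 ± 0.11 in RbpjiΔEC mice. Whether the Slfn3 probes also bind Slfn4 RNA was not tested.

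Slfn1, a short member that restrains T cell growth, was also higher under the CCR2+ label. Its levels in CCR2+ control arrays were 11.42, 11.30, 11.56 and 11.47, and in CCR2+ RbpjiΔEC arrays 11.35, 11.21, 11.22 and 11.45. In CCR2- control arrays they were 10.38, 10.06, 9.89 and 9.76, and in CCR2- RbpjiΔEC arrays 9.39, 9.49, 10.73 and 10.74. The last group split into a low and a high pair, yet all its arrays stayed below every CCR2+ array. The summed level of 12 T and NK cell markers was 12.27, 12.17, 11.77 and 11.97 in those 4 arrays, lower where Slfn1 was higher. In CCR2- control arrays that sum was 12.21, 11.90, 12.10 and 11.88, highest in array 1, where Slfn1 was also highest. For the 32 interferon-stimulated genes described below the sum was 14.98, 15.04, 15.07 and 15.09 in the CCR2- RbpjiΔEC arrays. The part of either list in the split was not tested. The difference was 1.42 ± 0.26 in control mice and 1.22 ± 0.26 in RbpjiΔEC mice. The second Slfn1 probe set read 5.83 to 6.16 in all groups, at or under background, and gives no second measure of the gene.

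Slfn2, the other short member, did not follow the label. Its levels in CCR2+ control arrays were 11.39, 11.78, 11.55 and 12.04, and in CCR2+ RbpjiΔEC arrays 11.06, 11.39, 11.93 and 11.77. In CCR2- control arrays they were 11.34, 11.54, 11.47 and 11.87, and in CCR2- RbpjiΔEC arrays 11.44, 11.46, 11.81 and 11.76. The 4 groups overlapped throughout, with a difference of 0.13 ± 0.18 in control mice and −0.08 ± 0.18 in RbpjiΔEC mice. Scaling mattered here, since centring each array on its median gave 0.67 and 0.31, and the values as deposited gave 0.72 and 0.60.

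Slfn5, a long member with a nuclear product, was higher in every CCR2+ array than in any CCR2- array. The levels of its leading probe set were 10.94, 10.79, 11.18 and 10.58 in CCR2+ control arrays, and 10.73, 10.67, 10.87 and 11.20 in CCR2+ RbpjiΔEC arrays. They were 9.44, 9.09, 9.31 and 8.97 in CCR2- control arrays, and 9.32, 9.30, 9.51 and 9.44 in CCR2- RbpjiΔEC arrays. The difference was 1.67 ± 0.14 in control mice and 1.48 ± 0.14 in RbpjiΔEC mice. The second probe set gave 1.44 and 1.22, while the third gave 0.39 and 0.15 with overlapping groups, so the 3 probe sets disagreed in size.

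Slfn8 and Slfn9, the pair with the most alike promoter windows, differed little between labels on their leading probe sets in the main scaling. Slfn8 levels were 11.10, 10.86, 10.93 and 10.74 in CCR2+ control arrays, and 10.30, 10.85, 11.00 and 10.93 in CCR2+ RbpjiΔEC arrays. They were 10.37, 10.65, 10.57 and 10.69 in CCR2- control arrays, and 10.28, 10.36, 10.76 and 10.75 in CCR2- RbpjiΔEC arrays. The difference was 0.34 ± 0.15 in control mice, where the groups narrowly did not overlap, and 0.23 ± 0.15 in RbpjiΔEC mice, where they did. Median centring gave 0.79 and 0.56, and the values as deposited gave 0.85 in both.

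Slfn9 levels were 8.87, 8.52, 8.79 and 9.14 in CCR2+ control arrays, and 8.98, 8.89, 8.73 and 8.82 in CCR2+ RbpjiΔEC arrays. They were 9.17, 8.85, 9.18 and 8.76 in CCR2- control arrays, and 9.35, 9.02, 8.93 and 9.12 in CCR2- RbpjiΔEC arrays. All groups overlapped on this leading probe set, and the difference was −0.16 ± 0.13 in control mice and −0.25 ± 0.13 in RbpjiΔEC mice. The sign changed with the processing, since median centring gave 0.05 and −0.10, and the values as deposited gave 0.10 and 0.19. It also changed with the probe set, since the second gave 0.70 ± 0.24 and 0.64 ± 0.24. The groups of that probe set overlapped in control mice. In RbpjiΔEC mice they did not, at 8.12 to 8.30 in CCR2+ arrays and 7.25 to 7.92 in CCR2- arrays.

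**Figure D1:**
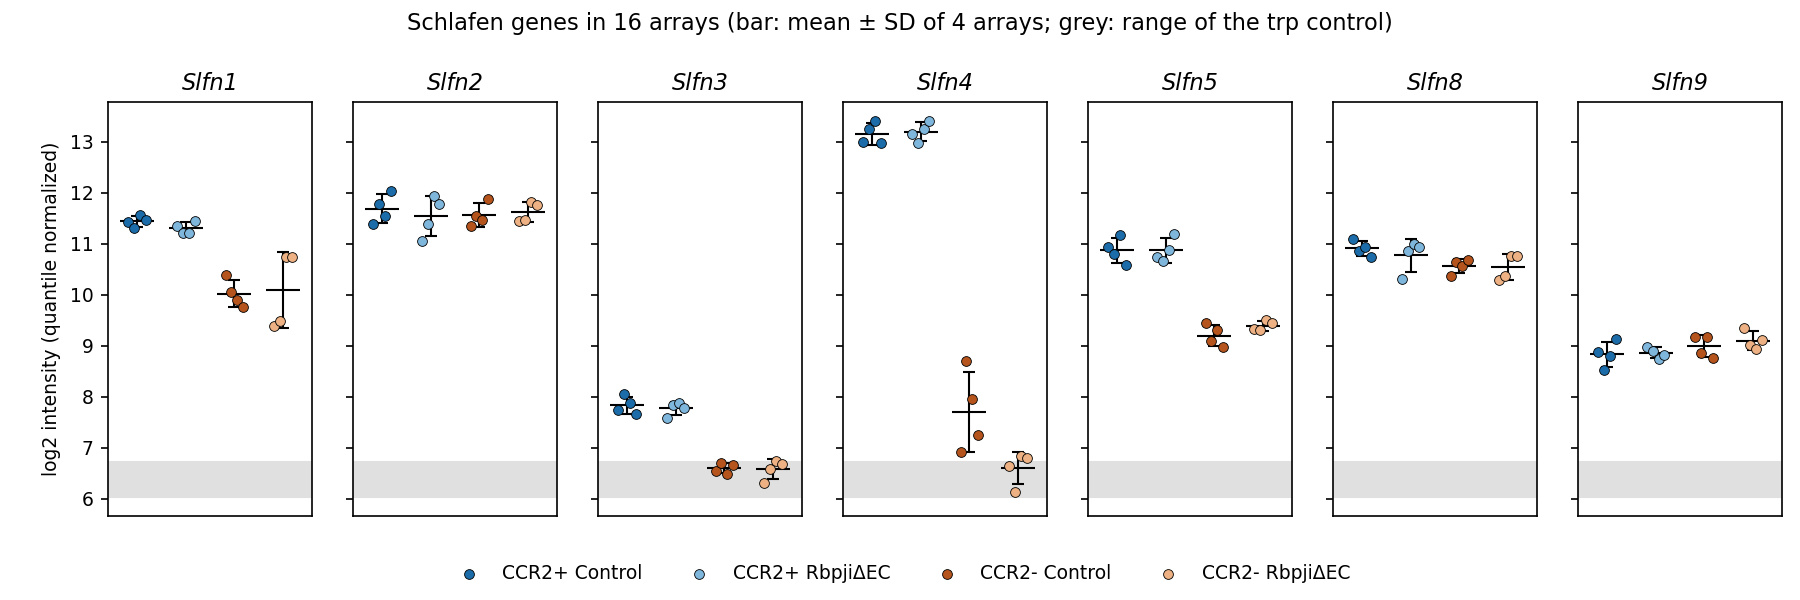
Log2 level after quantile normalization (vertical axis) of each of the 7 Schlafen genes in the 4 groups, with a point per array, a bar for the mean ± SD of 4 arrays and the trp background range in grey. Slfn1, Slfn3, Slfn4 and Slfn5 separate by label, with Slfn4 at 12.97 to 13.41 in CCR2+ arrays and 6.13 to 8.70 in CCR2- arrays, while Slfn2 and Slfn9 overlap throughout.

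Over the family, 5 of 7 members in control mice and 4 of 7 in RbpjiΔEC mice were higher in CCR2+ arrays without overlap, where 17.9% and 17.4% of all genes were. The members at least 2-fold higher were Slfn1, Slfn3, Slfn4 and Slfn5 in both genotypes, where 7.94% and 7.52% of all genes were. The median difference over the 7 members was 1.23 and 1.19, beside −0.03 over all genes in both. These counts describe the contrast by which the family was chosen, and nothing is read from them.

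**Figure D2:**
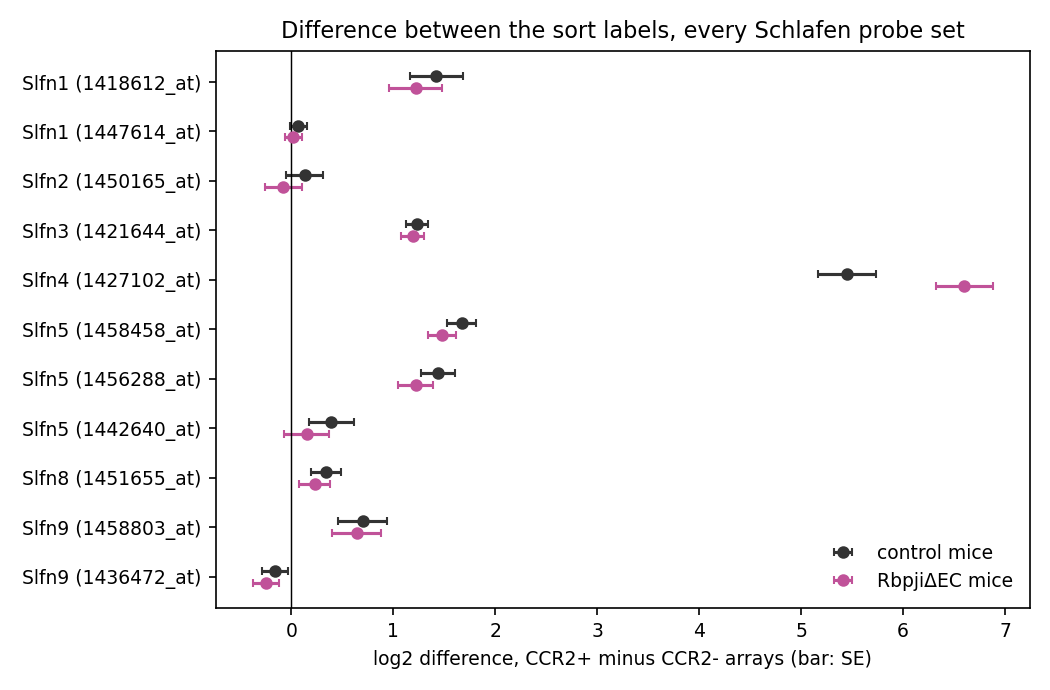
CCR2+ minus CCR2- difference on the log2 scale for all 11 Schlafen probe sets in control mice (black) and RbpjiΔEC mice (pink), with limma standard errors as bars. Slfn4 stands at 5.45 and 6.60, while the probe sets of Slfn1, Slfn5 and Slfn9 differ among themselves, for Slfn9 in sign (−0.16 and 0.70 in control mice).

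The genotype comparison asked whether endothelial loss of Rbpj changed the family in the sorted cells. Rbpj itself differed by 0.07 ± 0.15 in CCR2+ arrays and −0.09 ± 0.15 in CCR2- arrays, which does not check the deletion, since the sorted cells are not endothelial. In CCR2+ arrays none of the 7 members passed limma at an adjusted p of 0.05, where 0% of all genes did, and 0 of 7 had groups that did not overlap, where 3.39% of all genes had. Over all genes, 830 (4.56%) had an unadjusted p under 0.05, with none of the members among them. Slfn4 differed by 0.04 ± 0.28, with a 95% interval of −0.55 to 0.64 (limma adjusted p = 0.989), and Slfn5 by −0.01 ± 0.14, with an interval of −0.30 to 0.29. The other members lay between −0.15 (Slfn2, interval −0.54 to 0.24) and 0.02 (Slfn9, interval −0.26 to 0.31). Among these the widest interval was that of Slfn1, −0.67 to 0.42.

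In CCR2- arrays 0 of 7 members passed limma as well, where 0% of all genes did and 390 (2.14%) had an unadjusted p under 0.05. Slfn4 was the member with the largest difference, −1.11 ± 0.28 with a 95% interval of −1.70 to −0.51, or 2.15-fold. Its limma p was 0.0012 before and 1 after adjustment over all genes, so it did not pass. The 4 RbpjiΔEC arrays lay below the 4 control arrays, from 6.13 to 6.84 against 6.92 to 8.70, which held for 0.758% of all genes in that direction, and the exact two-sided permutation p was 0.0286, the smallest that 4 against 4 arrays can give. At least 2-fold lower were 12 genes (0.066%). The SE, interval and limma p of Slfn4 rest on 1 spread shared by the 4 groups. Its SD was 0.79 in CCR2- control and 0.32 in CCR2- RbpjiΔEC arrays. In CCR2+ control and RbpjiΔEC arrays it was 0.21 and 0.18. The interval may therefore be too narrow for the CCR2- groups. The label differences of Slfn4, in view when the family was chosen, use these same CCR2- arrays. Its interval, limma p and permutation p here are therefore a description. The remaining members lay between −0.03 (Slfn8, interval −0.35 to 0.29) and 0.19 (Slfn5, interval −0.11 to 0.49), each with an adjusted p of 1.

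**Figure D3:**
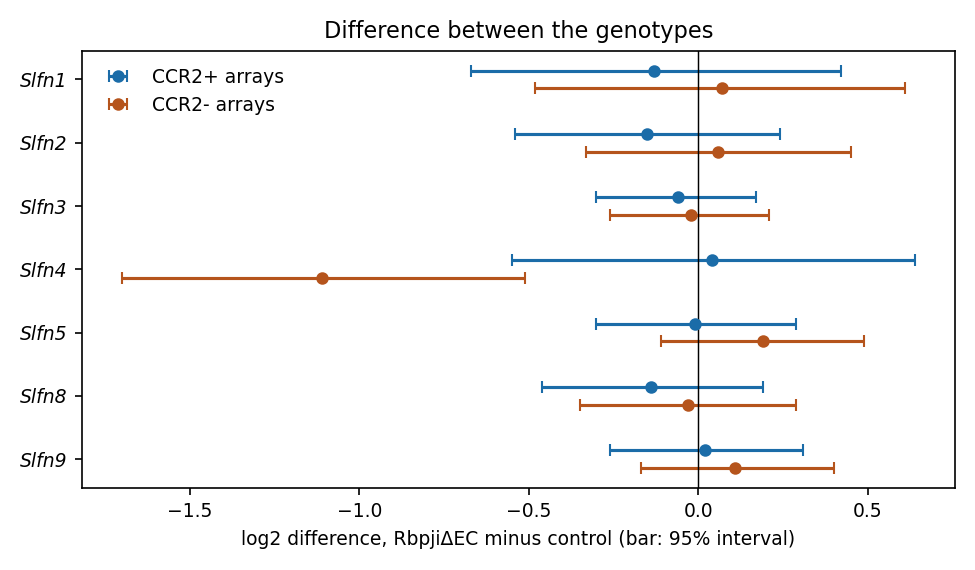
RbpjiΔEC minus control difference on the log2 scale for each Schlafen gene in CCR2+ and CCR2- arrays, with 95% intervals from limma as bars. The bars use 1 spread shared by the 4 groups. On that spread the interval of Slfn4 in CCR2- arrays, −1.70 to −0.51, does not reach 0, and those of the other members do. The SD of Slfn4 was 0.79 in CCR2- control arrays and 0.18 to 0.32 in the other groups, so its interval may be too narrow. The family was chosen with the label differences of Slfn4 in view, so its interval is a description.

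Neutrophil granule genes, and Chil3 of the inflammatory monocyte list, were highest in the CCR2- control arrays where Slfn4 was highest. These and the other markers of both lists were set beside Slfn4 after the values had been seen. Ngp, a neutrophil granule protein, read 7.54, 10.62, 8.83 and 7.26 in CCR2- control arrays, and 7.40, 7.34, 7.19 and 7.32 in CCR2- RbpjiΔEC arrays. S100a9, a subunit of the neutrophil protein calprotectin, read 7.43, 10.42, 9.10 and 7.08, and 7.44, 7.36, 7.09 and 7.54. In both genes control arrays 2 and 3 stood high, and these are the arrays with the highest Slfn4, 8.70 and 7.95. In control arrays 1 and 4, where Ngp was near its RbpjiΔEC level, Slfn4 read 6.92 and 7.25. All 10 measured neutrophil markers of 12 listed had a lower mean in CCR2- RbpjiΔEC than in CCR2- control arrays, with a median of −0.65 and 0 called. Their summed level was 10.2 to 12.75 in CCR2- control arrays and 10.22 to 10.42 in CCR2- RbpjiΔEC arrays. Chil3, a chitinase-like protein of monocytes and neutrophils, read 6.70, 9.60, 7.37 and 6.5 in CCR2- control arrays and 6.30 to 6.60 in CCR2- RbpjiΔEC arrays, again highest in control arrays 2 and 3. Ccr2 also had a lower mean in RbpjiΔEC arrays, by −1.04 ± 0.63, but was highest in control array 1, at 11.51. Of the 8 measured inflammatory monocyte markers 5 had a lower mean, with a median of −0.14 and 0 called, and the summed level was 13.55 to 13.86 against 13.52 to 13.70. For the large peritoneal macrophage markers the summed level was 12.22 to 13.01 and 12.2 to 12.42.

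Without control arrays 2 and 3, left out after the data were seen, the Slfn4 difference was −0.49 ± 0.20 (limma adjusted p = 1). These 2 arrays also had the highest Slfn4 of their group, so a smaller difference follows from leaving them out and says nothing of its cause. Leaving out single arrays in turn gave −1.37 to −0.77, the smallest difference without control array 2. In CCR2+ arrays all 10 neutrophil markers also had a lower mean in RbpjiΔEC mice, with a median of −0.29 and 0 called. Of the 8 inflammatory monocyte markers, 5 had a higher and 3 a lower mean there, with a median of 0.14 and 0 called. Chil3 differed by 1.00 ± 0.49, F13a1 by 0.90 ± 0.65 and Ccr2 by −0.31 ± 0.63, so Chil3 went the other way than in CCR2- arrays. The part of neutrophil or monocyte RNA in the Slfn4 difference was not tested.

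**Figure D4:**
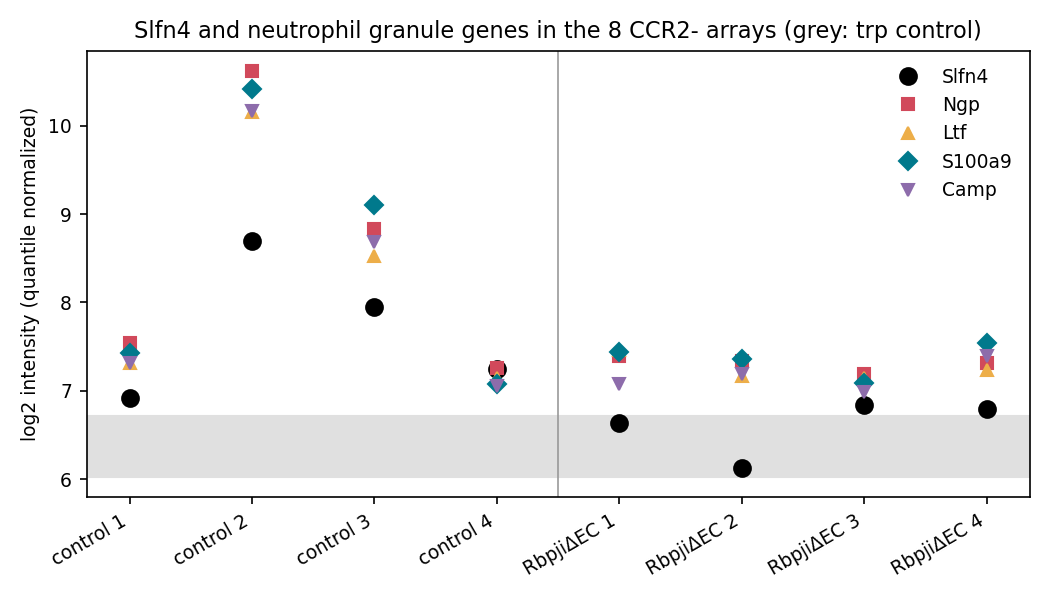
Log2 level of Slfn4 (black circles) and of the neutrophil granule genes Ngp, Ltf, S100a9 and Camp in each of the 8 CCR2- arrays. Control arrays 2 and 3 are high for all 5 genes, with Slfn4 at 8.70 and 7.95 and Ngp at 10.62 and 8.83, and the 4 RbpjiΔEC arrays are low for all 5.

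The difference between the genotype effects in the 2 labels was tested as an interaction. For Slfn4 it was 1.15 ± 0.40 with a 95% interval of 0.31 to 1.99, rank 5 of 18194 genes counted from the highest. It did not pass limma, with an adjusted p of 0.999 over all genes. The interaction is also the label difference in RbpjiΔEC mice less that in control mice. Those label differences were in view when the family was chosen, so the interval, rank and p of Slfn4 are a description. The interval also rests on the spread shared by the 4 groups, whose SDs differed for Slfn4. The other members lay between −0.21 and −0.04, also with an adjusted p of 0.999, and 0 of 7 members passed, where 0% of all genes did and 555 (3.05%) had an unadjusted p under 0.05, Slfn4 among them.

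The interferon pathway, which induces much of the family, was read from a list of 36 interferon-stimulated genes, of which 32 were measured. By limma 20 were higher and 4 lower in CCR2+ arrays of control mice, with a median of 0.67, and 17 were higher and 4 lower in RbpjiΔEC mice, with a median of 0.45. Of all genes, 19.4% were higher and 21.4% lower in control mice, and 18.1% and 21% in RbpjiΔEC mice. Median centring gave 23 higher and 1 lower, and 19 higher and 1 lower. Over all 18194 genes it gave 4405 higher and 2607 lower, and 3529 and 2842. Ifi204, a DNA sensor of myeloid cells, rose by 4.21 ± 0.19 in control mice (limma adjusted p = 1.59e-11), and Rtp4, an interferon-induced chaperone, by 3.11 ± 0.16 (limma adjusted p = 6.58e-11). Ifit2, which binds RNA, was lower by this scaling, at −1.21 ± 0.25 (limma adjusted p = 0.000711). Among members, Slfn2, Slfn8 and Slfn9 lay under the list's median in both genotypes, and Slfn1, Slfn3, Slfn4 and Slfn5 above it.

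Of 20 measured genes of the interferon receptors and their signal chain, 8 were higher and 6 lower in CCR2+ arrays of control mice, with a median of 0.05, and 6 and 6 in RbpjiΔEC mice, with a median of −0.01. The shares of all genes were 19.4% and 21.4% in control mice, and 18.1% and 21% in RbpjiΔEC mice. Centred on the array medians, the split of the 20 genes was 9 and 1, and 8 and 1. That of all 18194 genes was 4405 and 2607, and 3529 and 2842. Irf7, the interferon regulatory factor that amplifies type I interferon, rose by 1.87 ± 0.13 in control mice (limma adjusted p = 2.64e-09). Ifnar2, a chain of the type I interferon receptor, rose by 1.53 ± 0.08 (limma adjusted p = 9.64e-11). Jak2, a kinase of the interferon gamma receptor, was lower at −0.86 ± 0.12 (limma adjusted p = 1.56e-05). By genotype 0 genes of either list passed limma in CCR2+ or CCR2- arrays, where 0% of all genes did. In CCR2+ arrays 25 of the 32 interferon-stimulated genes had an estimate below 0, with a median of −0.10, where 47.5% of all genes lay above 0. In CCR2- arrays 24 had an estimate above 0, with a median of 0.05, where 49.1% of all genes did. On the values as deposited 5 did, with a list median of −0.11, where the median of all genes was itself −0.161.

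**Figure D5:**
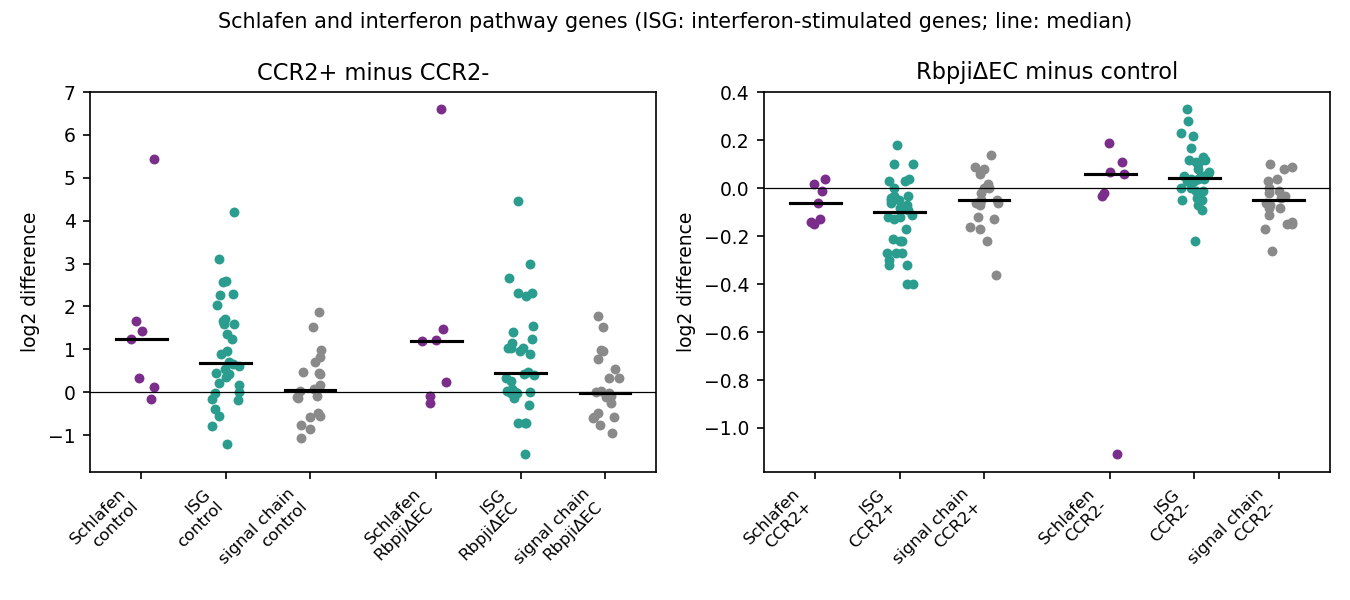
Log2 difference of each Schlafen gene (purple), interferon-stimulated gene (ISG, green) and signal chain gene (grey), with a point per gene and a line at the median, between labels on the left and between genotypes on the right, where the axes differ in range. On the left the Schlafen medians are 1.23 and 1.19 and the ISG medians 0.67 and 0.45, and on the right Slfn4 in CCR2- arrays lies apart at −1.11.

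The genes that flank the cluster on chromosome 11 were read for comparison. Among the 5 nearest measured protein-coding genes on each side of the cluster, 1 was higher and 4 lower in CCR2+ arrays of control mice by limma, with differences from −0.85 (Rad51d, a DNA repair gene) to 0.41. In RbpjiΔEC mice 2 were higher and 4 lower, from −0.88 to 0.52. Of all genes, 19.4% were higher and 21.4% lower in control mice, and 18.1% and 21% in RbpjiΔEC mice. None of the 10 neighbours passed limma by genotype, where 0% of all genes did.

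Within groups, the members did not all vary together. Over the deviations of the 16 arrays from their group means, the 21 pairs of members had correlations from −0.867 (Slfn3 with Slfn9) to 0.637 (Slfn3 with Slfn8), with a median of 0.191. In CCR2- RbpjiΔEC mice, however, arrays 3 and 4 read above arrays 1 and 2 for every member but Slfn9, with Slfn3 and Slfn4 near background there. The gene nearest to Slfn1 in these deviations was Gbp2b, an interferon-induced GTPase (r = 0.933), which read 10.94, 10.49, 12.28 and 12.32 in those 4 arrays. Next to Slfn2 stood Cox6c (r = 0.981) and Ubr7 (r = 0.964), and next to Slfn5 stood Ice1 (r = 0.912), Nuak2 (r = 0.889) and Ifi47 (r = 0.872), the last an interferon-induced GTPase. For Slfn4 they were Olfr658 (r = 0.904), Ugt2b34 (r = 0.849) and the neutrophil gene Ltf (r = 0.837). For Slfn3 they were Klhl4 (r = 0.862) and Ccpg1 (r = 0.860), for Slfn8 Hykk (r = 0.872) and Fkbp15 (r = 0.868), and for Slfn9 Fxyd2 (r = 0.900) and Adgrb1 (r = 0.897). Of these, Olfr658, Ugt2b34 and Klhl4 averaged 6.42, 6.29 and 6.08 over the 16 arrays, within the trp background of 6.03 to 6.72. On the levels themselves, where the arrays form 2 clusters by label and r restates that difference, Slfn4 was nearest to Fpr2 (r = 0.994), Peli2 (r = 0.993) and Cd33 (r = 0.991), and Slfn5 to Agrn (r = 0.983) and Rtp4 (r = 0.983). These correlations share the arrays and their normalization and are descriptions only.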

How the data were processed

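The authors deposited linear probe set intensity values for 16 arrays and 45101 probe sets, per the file headers. The upstream normalization and software are not given in the sources used here. The intensities were transformed to log2 and quantile normalized over all 16 arrays, with no filter on dim probe sets. Probe sets with a single gene symbol in the platform annotation were kept (34958), and the one with the highest mean stood for each of 18194 genes. A limma 3.58.1 fit (R 4.3.3) estimated each group's mean and 5 contrasts, with Benjamini-Hochberg adjustment over all genes at 0.05, two-sided. The script was tested on simulated data. The number of arrays limits the precision. The text names all members and their probe sets, Rbpj, the 3 genes most correlated with a member, up to 4 called genes of a list per comparison (at most 2 per direction, by size) and the 5 neighbours on each side. Markers of the sort and of neutrophils were named after their values were seen. The members and lists were chosen with earlier results of these data known. The lists of T and NK cell, dendritic cell and inflammatory monocyte markers had, by limma in CCR2+ minus CCR2- arrays of control mice, 1 higher and 2 lower of 12, 0 higher and 8 lower of 10, and 4 higher and 2 lower of 8. In that contrast 19.4% of all genes were higher and 21.4% lower. Alternatives changed the scaling, filter, probe set rule, array weights, replicate block and arrays included. Promoter sequences are from RefSeq, GRCm38.p6, searched with Python 3.11.15.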

Additional observations from a re-analysis of the deposited data

How the results depend on the processing

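No member passed limma by genotype or in the interaction under any alternative run; the lowest adjusted p was 0.265, for Slfn4 in CCR2- arrays without control array 1. Slfn4 in CCR2- arrays kept its sign throughout, from −1.39 to −0.49. Over all genes, the count called by genotype in CCR2+ arrays, 0 in the main setting, was 1 without the lowest tercile of genes by level, 1 with array weights, 1 with the replicate number as a block, 2 with the mean of a gene's probe sets, 2 with every probe set and 0 to 2 leaving out single arrays. In CCR2- arrays the count of 0 became 0 to 1 leaving out single arrays and 2 without CCR2- control arrays 2 and 3. With every probe set tested, 14534 and 13686 of 34958 were called by label in control and RbpjiΔEC mice, against 7423 and 7107 of 18194 genes. The split by label was 3532 higher and 3891 lower in control mice and 3290 and 3817 in RbpjiΔEC mice; median centring gave 4405 and 2607, and 3529 and 2842, and the values as deposited 4599 and 1726, and 5704 and 1193. As deposited, the median of all genes shifted by 0.234 for the label in RbpjiΔEC mice, −0.161 for genotype in CCR2- arrays and 0.162 for the interaction. Deviations of same-numbered arrays correlated from −0.38 to 0.194 across genotypes (3 of 8 pairs over 0.1, 3 of 16 arrays closest to their own number) and from −0.03 to 0.403 across labels (4 of 8 pairs over 0.1, 11 of 16), so not every pair was over 0.1 and the numbers were not taken as pairing; the latter is a hint from the data, not the design. The block gave 7504 and 7175 calls by label. The mean of all probe sets lowered the label difference of Slfn1 to 0.74 and 0.62 and of Slfn5 to 1.17 and 0.95. The second Slfn1 probe set reads at background, and the cause for Slfn5 was not tested. Levels near the trp background limit Slfn3 and Slfn4 in CCR2- arrays.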

Other observations

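Slfn10-ps, Slfnl1 and Slfn5os read low, but above the 6.03 to 6.72 of the trp probe sets. Their log2 levels were 6.82 to 7.22, 6.93 to 7.59 and 7.34 to 7.69. Slfn5os read 7.34 to 7.45 in CCR2+ control and 7.51 to 7.62 in CCR2+ RbpjiΔEC arrays. Such groups without overlap held for 3.39% of all genes, and 0% passed limma. The pseudogene Slfn10-ps, which lies inside the cluster, was lower in CCR2+ than in CCR2- arrays of RbpjiΔEC mice by −0.30 ± 0.08 on the log2 scale (limma adjusted p = 0.00592), a contrast in which 21% of all genes were lower. It was not called on the values as deposited. The difference was 0.02 ± 0.08 in control mice (limma adjusted p = 0.888). The interaction was −0.32 ± 0.11 and did not pass limma (adjusted p = 0.999). Slfnl1, a Schlafen-like gene, differed by 0.21 ± 0.12 and 0.04 ± 0.12, and neither passed limma (adjusted p = 0.187 and 0.848). Slfn14 was not analysed here.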
